A study of Mus musculus with 10 samples.

Results

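Interleukin-2 (IL-2) and the receptors of its family were described here as 8 genes: the cytokine gene Il2, the 3 chains of the IL-2 receptor (Il2ra, Il2rb and Il2rg), and the receptor chains Il4ra, Il15ra, Il21r and Il9r. They were chosen by name, from 19054 mouse genes with a value in both tables of the study and 20352 genes in its exon-level table. Probe sets naming 1 gene alone covered all 8 of them at the exon level and 7 at the gene level, where no probe set was named for Il2rg alone. Of the 8, 6 passed the filter on low values and were tested. Il2 missed that filter by a small margin in the gene-level table, at a mean of 3.53 log2 against a limit of 3.54, and Il2rg had no gene-level value.

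RNA came from CD3+ T cells isolated from spleens of 12 wk old male Balb/C mice, kept in culture for 4 days with an anti-CD3 antibody bound to the plate and an anti-CD28 antibody in solution. One group of 5 mice was wild type (WT1 to WT5), and the other group of 5 was KLF13 KO (KO1 to KO5), and all 10 cultures were activated alike. KLF13 is a zinc finger transcription factor of the Krüppel-like family that binds GC-rich and CACCC elements. The labels name each sample as a separate mouse, but the sources used here do not say how the knockout allele was made or whether it acts in T cells alone. No unactivated sample and no other time was part of the data used here.

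IL-2 is the growth factor that activated T cells make and answer to. Its high-affinity receptor joins an alpha chain that holds the cytokine (Il2ra, also called CD25) to a beta chain (Il2rb) and the common gamma chain (Il2rg), which pass the signal through the kinases JAK1 and JAK3 to STAT5. The common gamma chain also completes the receptors for IL-4, IL-7, IL-9, IL-15 and IL-21, each with a chain of its own. T cell stimulation switches Il2 and Il2ra on, and IL-2 signalling through STAT5 raises Il2ra further. The comparison of KLF13 KO with wild type asked how the lack of this factor alters the transcripts of activated T cells.

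The 4 receptor genes printed next form 2 pairs of neighbours on the genome. In the RefSeq annotation of GRCm38.p6, Il2ra and Il15ra lie on chromosome 2 with 2 annotated genes between them, 0 of them protein-coding. Il4ra and Il21r are direct neighbours on chromosome 7, with 0 annotated genes between them. The 250 bases before the RefSeq start of each gene are given 5′ to 3′, from the RefSeq promoter table of that build, with capitals marking CACCC or its reverse complement GGGTG, a box that KLF and SP factors can bind.
Il2ra, chr2:11642542-11642791, plus strand: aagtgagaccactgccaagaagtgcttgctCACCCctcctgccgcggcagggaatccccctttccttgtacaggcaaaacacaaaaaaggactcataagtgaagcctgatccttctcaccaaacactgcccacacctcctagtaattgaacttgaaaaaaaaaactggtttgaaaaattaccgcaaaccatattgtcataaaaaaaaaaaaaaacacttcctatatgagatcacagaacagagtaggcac
Il15ra, chr2:11705043-11705292, plus strand: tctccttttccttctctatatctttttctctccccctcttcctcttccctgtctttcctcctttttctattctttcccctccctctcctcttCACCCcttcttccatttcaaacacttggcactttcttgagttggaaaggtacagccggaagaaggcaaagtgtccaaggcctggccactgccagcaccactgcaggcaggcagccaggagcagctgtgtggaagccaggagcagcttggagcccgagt
Il4ra, chr7:125552021-125552270, plus strand: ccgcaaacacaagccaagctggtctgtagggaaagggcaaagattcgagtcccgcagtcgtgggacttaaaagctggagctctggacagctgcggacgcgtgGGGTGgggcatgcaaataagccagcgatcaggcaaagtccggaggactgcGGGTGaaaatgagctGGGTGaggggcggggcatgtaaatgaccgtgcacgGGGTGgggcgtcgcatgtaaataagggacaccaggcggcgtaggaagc
Il21r, chr7:125603179-125603428, plus strand: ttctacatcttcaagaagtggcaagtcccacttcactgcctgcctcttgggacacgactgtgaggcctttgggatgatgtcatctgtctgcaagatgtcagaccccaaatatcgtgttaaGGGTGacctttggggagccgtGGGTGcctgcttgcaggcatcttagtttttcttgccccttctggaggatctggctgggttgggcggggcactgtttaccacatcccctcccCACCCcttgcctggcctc

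Of the 8 genes, 7 had an entry in the promoter table, with 8 entries in all because Il15ra had 2. Each of the 8 entries held the box, on either strand: 1 in Il2, 1 in Il2ra, 2 in Il2rg, 4 in Il4ra, 1 and 2 in the entries of Il15ra, 3 in Il21r and 1 in Il9r. The letters CACCC or GGGTG stand in 52% of 32851 promoters of the same length, so most promoters hold them too. The STAT5 motif TTCNNNGAA, which is its own reverse complement, was in 0 of the 8 entries and in 7.02% of all promoters. A match is a description of letters and not of binding.

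The 3 exon-level replicates did not share a scale. Array medians were 5.21 and 5.23 log2 in WT1 and KO1, 6.25 to 6.43 in WT2, WT3, KO2 and KO3, and 4.18 to 4.3 in the gene-level arrays WT4, WT5, KO4 and KO5. The genotypes were therefore compared within 3 scale sets (replicate 1, replicates 2 and 3, replicates 4 and 5), and the main fit held the set as a fixed block. Bright exon-level probe sets stood lower across the knockout arrays as a whole. Among the 1982 exon-level probe sets of 11 to 12 log2, the median knockout minus wild type difference was -0.33 in replicate 1 and -1.30 in replicates 2 and 3. Among the 863 of 12 to 13 log2 it was -0.81 and -1.81, and the gene-level bins of brightness lay between -0.06 and 0.05. This spread with brightness moves with every bright gene described here, and its part in the results was not tested.

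Klf13 itself was lower in each knockout array of its set. Its log2 signal was 6.03 in WT1 and 5.41 in KO1, 6.95 and 6.89 in WT2 and WT3 against 6.16 and 6.07 in KO2 and KO3, and 7.21 and 7.54 in WT4 and WT5 against 6.21 and 6.46 in KO4 and KO5. The fit gave a log2 difference of -0.86 ± 0.12 (SE, 5 against 5, limma adjusted p = 0.0126), a call lost without WT2 (0.0689), WT3 (0.0507), WT4 (0.0558), KO4 (0.0641) or KO5 (0.0538) and kept in the gene-level table alone (0.0128). A transcript signal remained in the knockout arrays, and the sources used here do not say whether the probe sets lie in the deleted part. The labelled cell type was checked against its defining markers: of 11 T cell genes listed 10 were measured in both tables, and all 10 were above the filter. Of other markers measured in both tables, 0 of 4 for NK cells (5 listed) and 3 of 6 for B cells (7 listed) were above the filter. So were 4 of 8 for myeloid and dendritic cells and 2 of 6 for basophils and mast cells. For erythroid cells it was 2 of 2 (5 listed), and for stromal and endothelial cells 3 of 5. The filter passed 12489 of 19054 genes, so lying above it is a weak check of cell type.

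Among the tested members, Il2ra alone passed the main test, and no test compared the members with one another. With the scale sets as block, 1 of the 6 tested genes passed the limma test at an adjusted p under 0.05, and it was lower in the knockout, where 0.585% of all 12489 genes tested passed (61 lower and 12 higher, or 52 lower and 23 higher after cyclic loess normalization). Of the 6 genes, 5 had a difference below 0, and their median was -0.47 on the log2 scale, against -0.097 over all genes tested. The knockout mean was below the wild-type mean in all 3 sets for 4 of the 6, as it was for 24.8% of all genes tested; for 1 of the 4, Il4ra, the gene-level difference turned from -0.0088 to 0.03 with quantile normalization. At an unadjusted p under 0.05 there were also 4 of the 6 (Il2ra, Il2rb, Il4ra and Il21r), against 14.9% of all genes tested. In bulk RNA, fewer cells carrying a transcript and less of it per cell cannot be told apart.

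**Figure D1:**
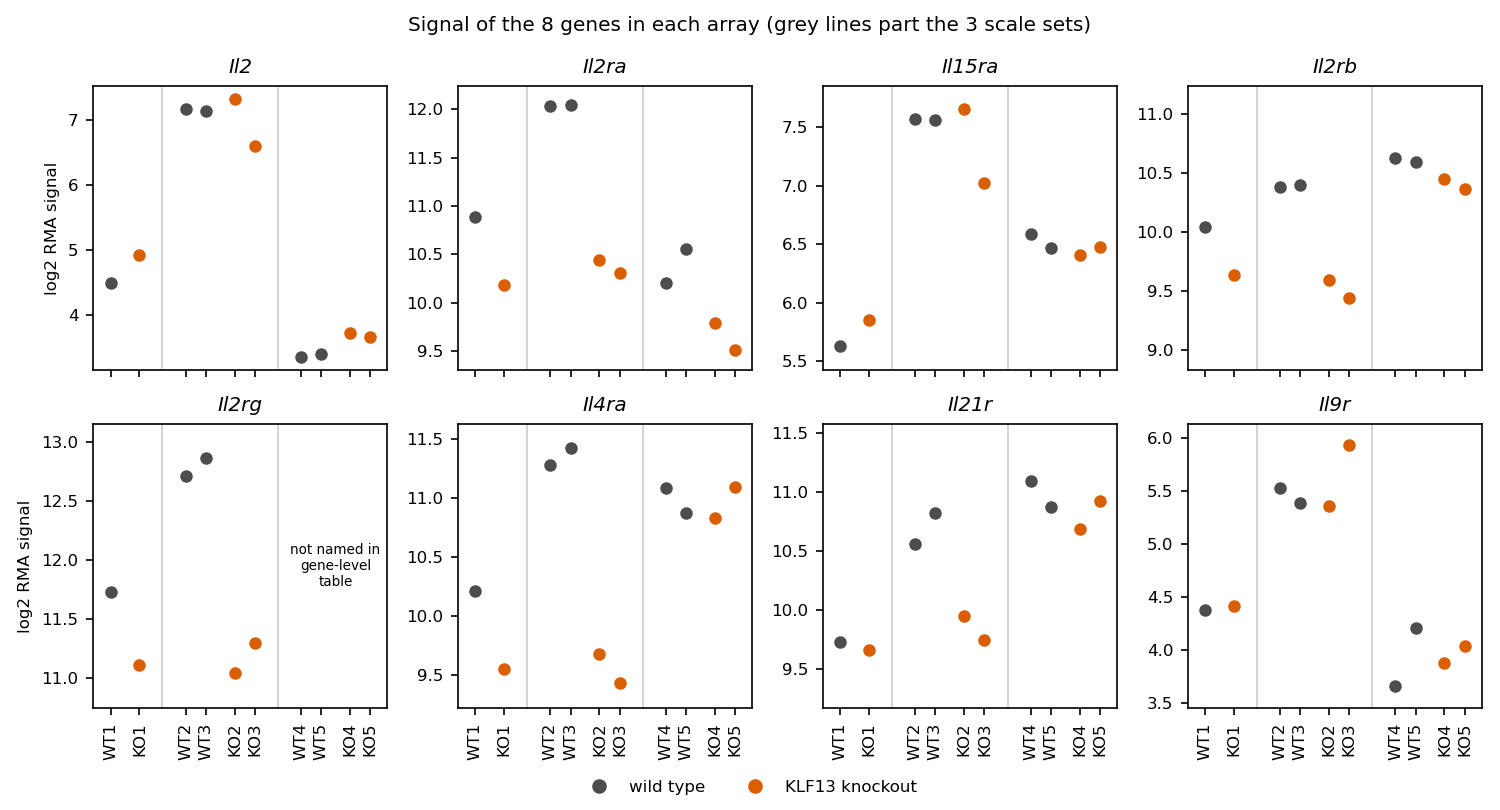
Log2 RMA signal (vertical axis, a separate range in each panel) of the 8 genes in each array, with wild-type arrays in grey, knockout arrays in orange and grey lines between the 3 scale sets. The knockout points of Il2ra and Il2rb lie below the wild-type points in each set, while Il4ra does so in the exon-level sets and overlaps in replicates 4 and 5; levels may be compared within a set only.

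The signal of Il2ra was 10.89 log2 in WT1 and 10.18 in KO1. In the second set it was 12.03 and 12.04 in WT2 and WT3 against 10.44 and 10.31 in KO2 and KO3. On the gene-level arrays it was 10.21 and 10.56 in WT4 and WT5, and 9.79 and 9.51 in KO4 and KO5. Each knockout array thus lay below each wild-type array of its set, in both array types. The knockout level was 0.610 of the wild-type level in replicate 1, 0.316 in replicates 2 and 3 and 0.601 in replicates 4 and 5.

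Over all 10 arrays Il2ra fell to 0.466 of the wild-type level, a log2 difference of -1.10 ± 0.18 (SE, 5 against 5, 95% interval -1.49 to -0.71, limma adjusted p = 0.0275). It ranked 23 by p among the 61 genes called lower. It fell by 0.73 ± 0.16 in the gene-level table alone (SE, 2 against 2, limma adjusted p = 0.0461), where 2.71% of genes were called and 1.99% were called lower. In the exon-level table alone the difference was -1.35 ± 0.24 (SE, 3 against 3, adjusted p = 0.308), in a fit in which limma called 0 of 12489 genes (0%) and 1019 (8.16%) had an unadjusted p under 0.05. Without KO3 the exon-level fit called 426 genes, and Il2ra passed in it (-1.22, adjusted p = 0.00412). KO3 was the exon-level array least like the others, with Pearson r from 0.870 (KO2) to 0.897 (WT2) over the genes tested. The other exon-level pairs had r from 0.939 (WT1 and KO2) to 0.994 (WT2 and WT3).

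The call of Il2ra was lost in 11 of 21 alternatives, and which array was left out decided whether it passed. It was lost without WT1 or KO1 (adjusted p = 0.051 each), WT2 (0.114), WT3 (0.0961), WT5 (0.0794), KO4 (0.0532) or KO5 (0.0773), with the table in place of the scale set as block (0.632) and with the median of probe sets (0.065, or 0.0529 with quantile normalization added). It passed without WT4 (0.0484), KO2 (0.0459) or KO3 (0.00479), the difference lying between -1.21 and -0.66 over all 21 alternatives. Cyclic loess normalization, which evens out the dependence on brightness, kept the call with a smaller difference of -0.66 (adjusted p = 0.029); in the gene-level table the call was lost without WT5 (-0.56, 0.0888) or KO5 (-0.60, 0.157).

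Most probe sets of Il2ra were lower in the knockout, by amounts that differed between them. All 10 were lower in KO1 than in WT1, with differences from -1.47 to -0.27 log2 units. In KO2 and KO3 9 of 10 were lower on average, with differences from -2.58 to 0.05 over the 10. Over all exon-level probe sets tested, of any brightness, 33.9% were lower in both comparisons. Brighter probe sets of the gene differed more, with a correlation of -0.98 between brightness and the difference in replicates 2 and 3 over the 10 probe sets, which share a transcript and the same 4 arrays. The brightest, 10469280, read 14.02 and 14.14 in WT2 and WT3 against 11.31 and 11.75 in KO2 and KO3. The dimmest, 10469279, read 8.93 and 8.88 against 8.35 and 9.55, so that KO3 stood above both wild-type arrays there.

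The probe sets of Il2ra were also set against others of like brightness. All 10 were below the median of their brightness bin in replicate 1, and 9 of 10 in replicates 2 and 3. A bin median has as many probe sets below it as above, and the 10 share a transcript and the same arrays. The median distance of the 10 from their bin medians was -0.40 and -0.74 log2 units. The same gap was -0.38 and -0.98 for the 15 probe sets of Il4ra, -0.19 and -0.14 for the 13 of Il2rb, -0.02 and -0.42 for the 9 of Il2rg, and 0.07 and -0.11 for the 10 of Il21r. It was 0.32 and 0.08 for the 7 of Il2, 0.25 and 0.11 for the 10 of Il15ra, and -0.05 and 0.17 for the 10 of Il9r. Of 84 probe sets of the 8 genes 79 were tested one by one, 27 had an unadjusted p under 0.05 (4.67% of all 169103 did), and limma called 0 of them and 0 over the whole table (0%). The 27 belonged to Il4ra (10), Il2ra (8), Il2rg (5) and Il2rb (4), and 0 to Il2, Il15ra, Il21r or Il9r. Probe sets of a gene share a transcript and the same 6 arrays. The 4.67% covers probe sets of any brightness, so it is not a like background for these bright genes.

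**Figure D2:**
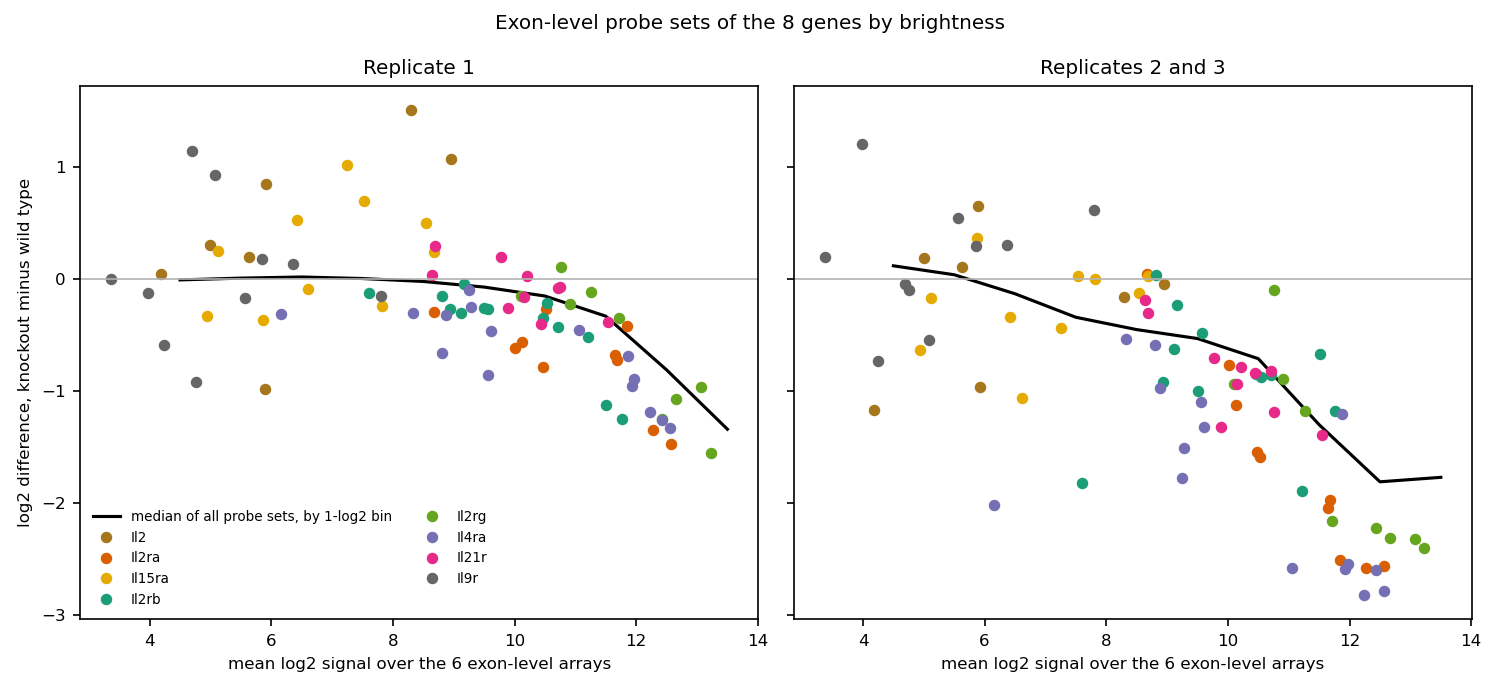
Knockout minus wild-type log2 difference (vertical axis) of each exon-level probe set of the 8 genes against its mean log2 signal over the 6 exon-level arrays (horizontal axis), for replicate 1 (left) and replicates 2 and 3 (right); the black line joins the medians of all probe sets in bins of 1 log2 unit. The line falls with brightness to -1.34 in the brightest bin of replicate 1, and to -1.81 in the bin of 12 to 13 log2 and -1.77 in the brightest bin of replicates 2 and 3; all 10 points of Il2ra in replicate 1 and 9 of 10 in replicates 2 and 3 lie below the median of their bin.

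Il2rb, the beta chain shared by the IL-2 and IL-15 receptors, was lower in each knockout array of its set without passing the test. Its signal was 10.04 in WT1 and 9.64 in KO1, 10.38 and 10.40 in WT2 and WT3 against 9.59 and 9.44 in KO2 and KO3, and 10.63 and 10.59 in WT4 and WT5 against 10.45 and 10.36 in KO4 and KO5. The order of the groups was thus the same in each set. The difference was -0.51 ± 0.14 (SE, 5 against 5, 95% interval -0.81 to -0.22) and did not pass the limma test (adjusted p = 0.157); cyclic loess brought it to -0.19. Il2ra and Il2rb were the 2 of 6 tested genes with such separation in every set, which 10.8% of all genes tested showed; 1.63% showed the opposite order. The gene-level table alone gave Il2rb a difference of -0.20 (adjusted p = 0.472), and the exon-level table one of -0.72 (0.448, or 0.0224 without KO3).

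Il2rg, the common gamma chain, could be read in the exon-level arrays alone. Its signal was 11.73 in WT1 and 11.11 in KO1, and 12.71 and 12.86 in WT2 and WT3 against 11.04 and 11.30 in KO2 and KO3. Every knockout array was below the wild-type arrays of its set, as were those of 43.1% of the tested genes in replicates 2 and 3. Among all 14246 exon-level genes above the filter the difference was -1.28 ± 0.25 (SE, 3 against 3, adjusted p = 0.357), where limma called 0% and 1141 genes (8.01%) had an unadjusted p under 0.05. Quantile normalization brought it to -0.76 (adjusted p = 0.721). Of its 9 probe sets, 6 exceeded 12 log2 in WT2 or WT3. The brightness bins go by the mean over the 6 exon-level arrays. By that mean, the probe sets at 12.43, 12.66, 13.07 and 13.23 lay in the bins from 12 log2 up, where the medians of all probe sets were lowest. Another 5 probe sets named Il2rg together with Gm614 and were left out.

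Il4ra, which pairs with the gamma chain to bind IL-4, read differently in the 2 array types. Its signal was 10.21 in WT1 against 9.55 in KO1, and 11.28 and 11.42 in WT2 and WT3 against 9.68 and 9.43 in KO2 and KO3. In the gene-level arrays it was 11.08 and 10.87 in WT4 and WT5, and 10.83 and 11.09 in KO4 and KO5. The exon-level groups were apart and the gene-level groups overlapped, where 26% of all genes tested had each knockout array below each wild-type array. All 15 of its exon-level probe sets were lower in the knockout in both exon-level sets, with differences from -2.82 to -0.53 log2 units in replicates 2 and 3.

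The exon-level difference of Il4ra was -1.42 ± 0.26 (SE, 3 against 3, 95% interval -2.03 to -0.81, limma adjusted p = 0.312), and the gene-level difference was -0.0088 ± 0.14 (SE, 2 against 2, interval -0.33 to 0.31, adjusted p = 0.992). The gap between them was 1.41 ± 0.36 (SE, 95% interval 0.62 to 2.20), with an unadjusted p of 0.00253 and a limma adjusted p of 0.872 for the interaction of genotype and table, a test in which 0% of genes were called and 5.27% had an unadjusted p under 0.05. Without KO3 the exon-level difference was -1.24 (adjusted p = 0.00537) and this gap 1.23 (0.0470). Over all arrays the difference was -0.86 ± 0.26 (adjusted p = 0.209) and did not pass; cyclic loess brought it to -0.48, and the exon-level difference to -0.81. The same gap between tables was 0.61 for Il2ra (interval -0.12 to 1.35, adjusted p = 0.872) and -0.08 after cyclic loess.

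Il21r, the specific chain of the IL-21 receptor and the neighbour of Il4ra, was lower in the knockout on average in each set and did not pass. Its signal was 9.73 in WT1 and 9.66 in KO1, 10.56 and 10.82 in WT2 and WT3 against 9.95 and 9.75 in KO2 and KO3, and 11.09 and 10.87 in WT4 and WT5 against 10.69 and 10.92 in KO4 and KO5. The groups were apart in replicates 2 and 3 and overlapped in replicates 4 and 5. The difference was -0.42 ± 0.15 (SE, 5 against 5, interval -0.76 to -0.09, limma adjusted p = 0.261), and cyclic loess brought it to -0.09.

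Il15ra, the chain that holds IL-15 and the neighbour of Il2ra, had differences on both sides of 0. Its signal was 5.63 in WT1 and 5.85 in KO1, 7.57 and 7.56 in WT2 and WT3 against 7.65 and 7.02 in KO2 and KO3, and 6.59 and 6.47 in WT4 and WT5 against 6.41 and 6.48 in KO4 and KO5. The knockout arrays were on both sides of the wild-type arrays. The difference was -0.08 ± 0.14 (SE, 5 against 5, limma adjusted p = 0.736), and its 95% interval of -0.39 to 0.22 does not reach the difference of -1.10 measured for Il2ra; the difference between the 2 genes was not itself tested. Of its 10 probe sets, 4 were lower in replicate 1, 6 in replicates 2 and 3 and 2 in both.

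Il9r, the specific chain of the IL-9 receptor, lay near the filter limits, at means of 5.17 log2 in the exon-level and 3.95 in the gene-level table against limits of 4.74 and 3.54. Its signal was 4.38 in WT1 and 4.42 in KO1, 5.53 and 5.39 in WT2 and WT3 against 5.36 and 5.93 in KO2 and KO3, and 3.66 and 4.21 in WT4 and WT5 against 3.88 and 4.04 in KO4 and KO5. The groups overlapped in both sets with more than 1 array per genotype. The difference was 0.09 ± 0.15 (SE, 5 against 5, interval -0.24 to 0.42, limma adjusted p = 0.733).

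**Figure D3:**
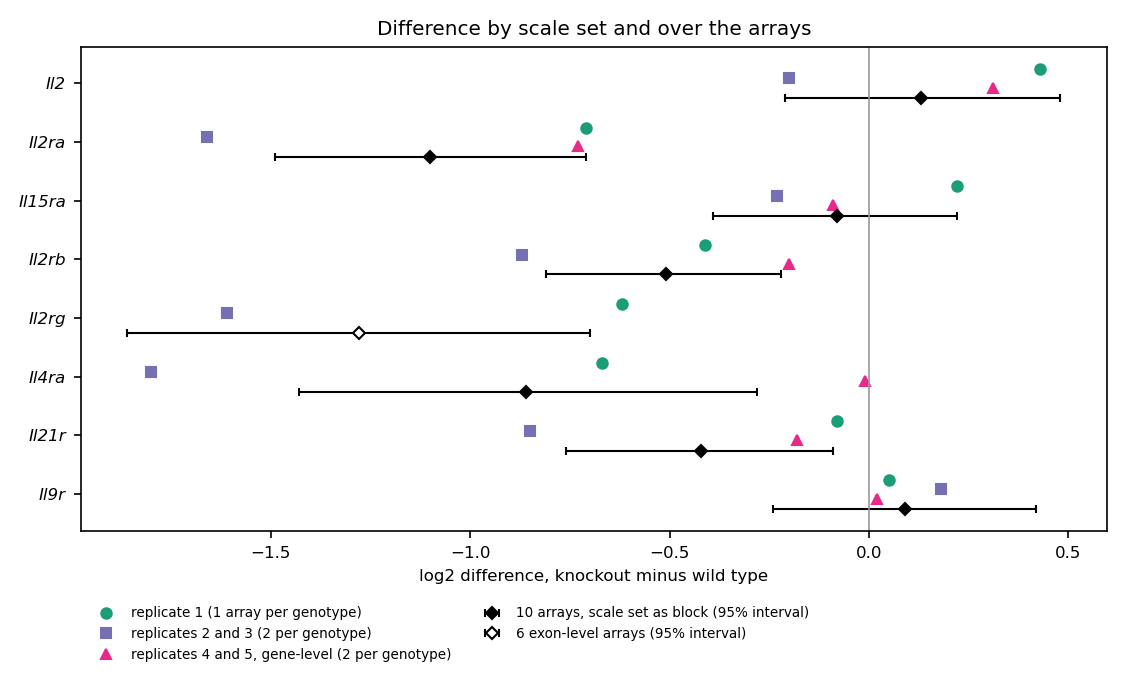
Knockout minus wild-type log2 difference (horizontal axis) of each gene in replicate 1 (circles), replicates 2 and 3 (squares) and the gene-level replicates 4 and 5 (triangles), with the fit over the arrays and its 95% interval (black diamonds; the open diamond of Il2rg is the exon-level fit alone). Il2ra lies at -0.71, -1.66 and -0.73 in the 3 sets, Il4ra at -0.67, -1.80 and -0.0087, and the intervals of Il2, Il15ra and Il9r include 0.

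The cytokine gene Il2 was near or under the filter limit on the gene-level arrays after 4 days of stimulation and showed no shared direction. It read 4.48 in WT1 and 4.91 in KO1, 7.17 and 7.14 in WT2 and WT3 against 7.32 and 6.59 in KO2 and KO3, and 3.35 and 3.39 in WT4 and WT5 against 3.72 and 3.65 in KO4 and KO5. The knockout arrays were higher in replicate 1 and in replicates 4 and 5, and overlapped the wild type in replicates 2 and 3. Without the filter the difference was 0.13 ± 0.16 (SE, 5 against 5, 95% interval -0.21 to 0.48, limma adjusted p = 0.696). Its 7 probe sets disagreed, with differences from -0.98 to 1.51 in replicate 1 and from -1.17 to 0.65 in replicates 2 and 3, and 0 of them were lower in both. The gene-level arrays, where Il2 lay at the filter limit, could show little of a fall. In the exon-level arrays alone, in the fit of all exon-level genes, the difference was 0.01 (95% interval -0.58 to 0.60, limma adjusted p = 0.983). A lower Il2 signal was not detected, and this interval allows a difference down to -0.58.

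Across the 10 arrays, after the mean of each scale set was subtracted, the log2 values of Il2ra, Il2rb, Il4ra and Il21r followed one another, with Pearson r of 0.97 for Il2ra and Il2rb, 0.96 for Il2rb and Il4ra, 0.94 for Il4ra and Il21r and 0.88 for Il2ra and Il4ra. Il15ra had an r of 0.37 with Il2ra. The arrays share the genotype difference and the lowering of bright signals, so these values describe the arrays only. The tested genes most like each member by the same measure were Ssr4 and Castor1 for Il2ra (r = 0.990 each), Pnn (0.997) and Plac8 (0.987) for Il2rb, and Dgka (0.994) and Eif3h (0.991) for Il4ra. They were Tm6sf1 (0.994) and Nipa2 (0.992) for Il15ra, Sting1 (0.991) and Slc7a1 (0.990) for Il21r, and Dbx1 and Hpca (0.977 each) for Il9r. None of these 12 genes passed the limma test between genotypes, with adjusted p from 0.0602 (Castor1) to 0.661 (Nipa2). Without KO3, Castor1 (0.0101) and Plac8 (0.0268) passed, and Castor1 also passed with array medians subtracted (0.0386).

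A list of other ligands and receptor chains, of this family or only related to it (Crlf2, Il13ra1 and Tslp), held 9 genes. Of these, 5 were tested, 2 fell and 0 rose, against 0.488% of all genes tested called lower and 0.0961% called higher. Their median difference was -0.46, against -0.097 over all genes tested. Il21, the cytokine read by Il21r, was at 9.13 in WT1 and 8.55 in KO1, 8.88 and 9.0 in WT2 and WT3 against 6.34 and 5.50 in KO2 and KO3, and 8.0 and 8.37 in WT4 and WT5 against 7.13 and 6.75 in KO4 and KO5. It was lower in each knockout array of its set, and over all arrays it fell by 1.82 ± 0.34 on the log2 scale, to 0.283 of the wild-type signal (SE, 5 against 5, limma adjusted p = 0.0444). Its adjusted p was 0.0106 in the gene-level table alone. The call over all arrays was lost in 12 of 21 alternatives, including quantile normalization (adjusted p = 0.0556) and the omission of any of WT2 (0.165), WT3 (0.133), WT4 (0.113), WT5 (0.117), KO2 (0.0721), KO4 (0.107) and KO5 (0.111).

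Il4, the ligand of Il4ra and a cytokine of Th2 cells, was at 6.48 in WT1 and 5.19 in KO1, 6.62 and 6.39 in WT2 and WT3 against 5.48 and 5.16 in KO2 and KO3, and 4.52 and 4.12 in WT4 and WT5 against 3.94 and 3.87 in KO4 and KO5. The groups were apart in each set. It fell to 0.538 of the wild-type level (-0.89 ± 0.17, SE, 5 against 5, limma adjusted p = 0.0470), with differences of -1.28, -1.18 and -0.41 in the 3 sets. Its adjusted p in the gene-level table alone was 0.218, and its call over all arrays was lost in 13 of 20 alternatives, among them the omission of WT1 (adjusted p = 0.151), WT2 (0.181), WT3 (0.154), WT4 (0.15), KO1 (0.151), KO2 (0.0706), KO4 (0.107) or KO5 (0.0984). The ligands Il4 and Il21 thus passed the test while the tested receptor chains for them, Il4ra and Il21r, did not; no test compared ligand with receptor. Outside the rule for named genes, the remaining tested members of the list were Il9 (-0.46, adjusted p = 0.453), Il7r (-0.34, 0.374) and Crlf2 (0.01, 0.964).

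Of 16 genes of JAK-STAT signalling, the relay below these receptors, 15 were tested and 0 passed in either direction (0.585% of all genes tested did), with 4 at an unadjusted p under 0.05 (14.9% of all). Their median difference was -0.28 over all arrays, -0.45 at the exon level and -0.04 at the gene level, where the medians of all genes tested were -0.097, -0.145 and -0.01. The smallest p belonged to Jak2, a kinase of other cytokine receptors, at -0.83 ± 0.23 (SE, 5 against 5, limma adjusted p = 0.176). Stat5a and Stat5b, named here outside the rule as the transcription factors that IL-2 activates, were at -0.62 (adjusted p = 0.198) and -0.30 (0.438). Gene-level differences of these 2 genes were -0.17 and 0.19.

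STAT5 target and feedback genes were 18, all tested, of which 1 fell and 0 rose (0.488% of all genes tested were called lower), with 10 at an unadjusted p under 0.05 (14.9% of all). The median difference was -0.38, against -0.097 over all genes tested. Gzmb, the granzyme B protease of cytotoxic cells, was at 11.47 in WT1 and 10.95 in KO1, 11.76 and 11.71 in WT2 and WT3 against 10.64 and 11.26 in KO2 and KO3, and 10.66 and 10.67 in WT4 and WT5 against 10.05 and 9.80 in KO4 and KO5. Its groups were apart in each set. It fell to 0.611 of the wild-type level (-0.71 ± 0.14, SE, 5 against 5, limma adjusted p = 0.0470), and in the gene-level table alone its adjusted p was 0.0248. The call over all arrays was lost in 18 of 21 alternatives. Quantile normalization brought it to -0.37 (adjusted p = 0.413), cyclic loess to -0.22 (0.643), and leaving out any single array other than KO3 gave an adjusted p of 0.0652 to 0.185.

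Of the other members of this list, 8 are given here that were named after their values were seen, and none of these 8 passed. Cish, a STAT5-induced inhibitor of cytokine receptors, had a difference of -0.41 (limma adjusted p = 0.178), with -0.19, -0.63 and -0.28 in the 3 sets. Pim1, a survival kinase, was at -0.66 (adjusted p = 0.0951), Prdm1, the gene of the repressor Blimp-1, at -0.68 (0.0726) and Bcl2l1, the gene of the survival factor Bcl-xL, at -0.47 (0.152). Foxp3, the factor of regulatory T cells, which carry much CD25, was at 0.21 (adjusted p = 0.488), with 0.56, -0.25 and 0.48 in the 3 sets. Lta, the gene of lymphotoxin alpha, was at 0.24 (adjusted p = 0.398), Bcl6, a repressor in follicular helper T cells, at 0.10 (0.738) and Bcl2, a survival factor, at -0.06 (0.844). The gene-level median of the list was -0.11, against -0.01 over all genes tested.

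Factors that bind the Il2 promoter (NFAT, AP-1, NF-kB and octamer proteins and their partners) were 15 genes, of which 13 were tested and 0 passed (0.585% of all genes tested did), with 3 at an unadjusted p under 0.05 (14.9% of all). Their median difference was -0.09 over all arrays, against -0.097 over all genes tested. The array types differed in sign, with a median of -0.33 at the exon level (all genes -0.145) and 0.15 at the gene level (all genes -0.01). At the gene level 4 of the 13 lay below 0 and 1 passed, where 2.71% of all genes tested passed. The gene of smallest p was Crem, a repressor of cAMP-responsive genes, at -0.54 ± 0.20 (SE, 5 against 5, limma adjusted p = 0.272). Crem fell in the gene-level table alone by 0.77 (2 against 2, limma adjusted p = 0.0424).

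**Figure D4:**
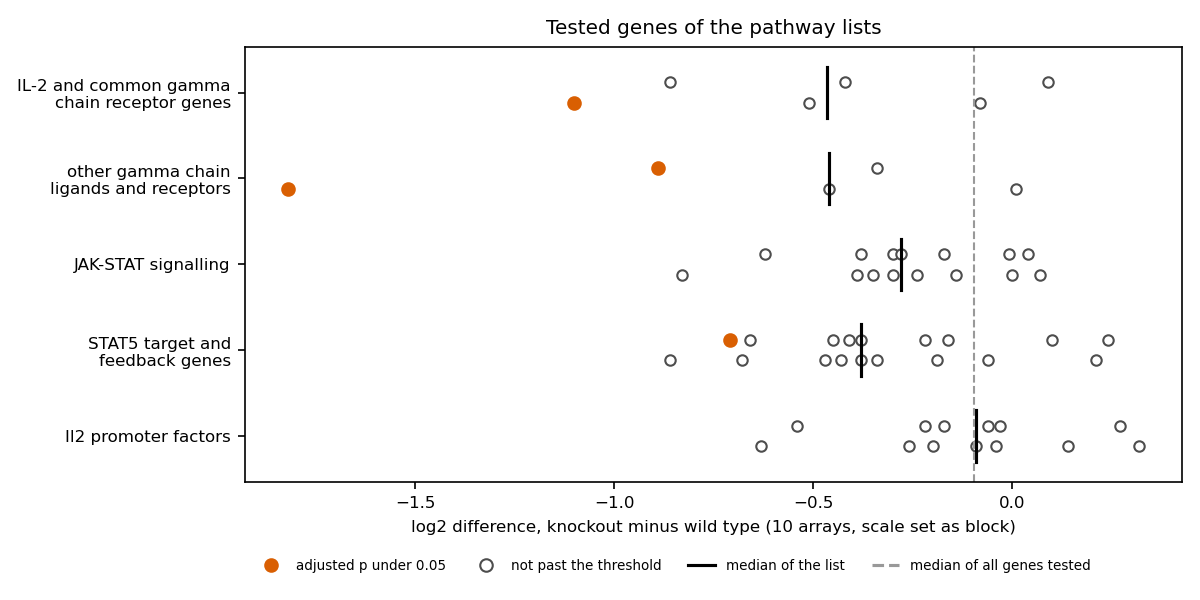
Knockout minus wild-type log2 difference over the 10 arrays (horizontal axis) of each tested gene in the receptor group and in 4 lists of related genes; filled orange points passed an adjusted p under 0.05, black bars are the medians of the lists and the dashed line the median of all genes tested (-0.097). The passing points are Il2ra at -1.10, Il21 at -1.82, Il4 at -0.89 and Gzmb at -0.71, all lower in the knockout.

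T cell identity genes moved with the receptors in the exon-level arrays. The median difference of the 10 tested T cell markers was -0.28 over all arrays, -0.50 at the exon level and 0.02 at the gene level. Of these markers 0 passed, where 0.585%, 0% and 2.71% of all genes tested passed in the same fits. Their log2 summed signal was 14.28 to 14.34 in WT2 and WT3 against 13.24 to 13.26 in KO2 and KO3, 13.33 in WT1 against 12.93 in KO1, and 13.56 to 13.69 in WT4 and WT5 against 13.61 to 13.71 in KO4 and KO5. The T cell sums of the genotypes overlapped in the gene-level arrays. The summed B cell markers were 6.78 to 6.83 in WT4 and WT5 against 6.88 to 6.96 in KO4 and KO5, and the summed basophil and mast cell markers 6.67 to 7.14 against 7.15 to 7.21. The erythroid sums were 5.12 to 5.25 against 5.43 to 5.48, and the stromal and endothelial sums 7.43 to 7.44 against 7.59 to 7.76. These 4 sums were higher without overlap in the knockout in the gene-level arrays. Those of myeloid and dendritic cells (7.48 to 7.5 against 7.49 to 7.62) and of NK cells (4.65 to 4.71 against 4.54 to 4.77) overlapped. In replicates 2 and 3 the sums of B cells (8.35 to 8.41 against 8.35 to 8.6) overlapped. So did those of erythroid cells (6.38 to 6.46 against 6.41 to 6.73) and NK cells (6.17 to 6.25 against 6.08 to 6.73). There the myeloid and dendritic sums (8.3 to 8.31 against 8.44 to 8.45) were higher without overlap in the knockout. The basophil and mast cell sums (7.56 to 7.62 against 7.77 to 8.05) and stromal and endothelial sums (8.31 to 8.43 against 8.45 to 8.59) were too. Single markers in the 4 sums higher at the gene level did not all go the same way. At the gene level 1 of 3 tested B cell markers and 1 of 2 tested basophil and mast cell markers lay below 0. So did 1 of 3 tested stromal and endothelial markers, and 0 of 2 erythroid markers, the only 2 in that sum. Of the tested basophil and mast cell markers 1 rose in the gene-level table, where 0.721% of all genes tested were called higher. This was Kit, a growth factor receptor, at 5.46 and 5.55 in WT4 and WT5 against 6.17 and 6.35 in KO4 and KO5 (difference 0.75, limma adjusted p = 0.0215). The part of T cell content and of these other cells in the results was not tested.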

How the data were processed

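The deposited values were log2 RMA signals of Affymetrix arrays, per the submitters' processing notes. The sources used here do not give the version of RMA or further steps of the authors. Nor do they say whether all exon-level arrays were normalized together. Per the labels, RNA was amplified from its 3′ end with oligo(dT). Replicates 1 to 3 of each genotype stand in an exon-level table (241576 probe sets) and replicates 4 and 5 in a gene-level table (35556), normalized separately. Of these, 212097 and 21797 probe sets named 1 gene, 4475 and 1613 several (left out), and 25004 and 12146 none, after the symbols of 24495 and 23 probe sets were brought up to date from RefSeq. Exon-level probe sets (median 8) were averaged per gene, and the brightest gene-level probe set was used. Tests covered 12489 genes, those whose mean log2 reached the 30th percentile in both tables.

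Fits used R 4.3.3 and limma 3.58.1 (2-sided, with eBayes, and Benjamini-Hochberg adjustment over all genes), with 3 scale sets as fixed block. They were also run on simulated data with known changes and independent noise. The simulated arrays held no lowering of bright signals and no outlying array, so they cannot show how the fits behave under these. Alternatives were another block, normalization, probe set summary or filter, eBayes with trend and robust, and leaving out each array. Members, lists and fits were chosen with earlier results of these data known. Named were the members, Klf13, up to 4 passing genes of each list or else that of smallest p, and the 2 genes most like each member; other names are said to be outside the rule. The number of arrays limits the precision.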

Additional observations from a re-analysis of the deposited data

Results flagged for a closer look

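Among the 5 knockout arrays, each set against the wild-type mean of its scale set, 1 of 7 genes checked had an array far from the others. For Il2, KO3 lay at -0.56 log2 units, while the highest of the knockout arrays lay at 0.43. The gap from KO3 to its nearest neighbour took 0.738 of the whole range, above the critical value of 0.710. Chance gives such a gap in about 1 in 20 groups of 5.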

How the results depend on the processing

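Fits with another setting changed how many genes passed over all genes tested. Over all arrays 73 genes passed, against 4 with the table as block, 23 with the replicate number as block, 31 with the median of probe sets, 39 with this median and quantile normalization (chosen after seeing the data, as were cyclic loess, the fit of all exon-level genes and the crossed pairing), and 12 (without KO4) to 362 (without KO3) when 1 array was left out. At the gene level 339 calls became 661 with the replicate block, 515 with trend and robust, 938 with the numbers crossed and 193 (without KO4) to 534 (without WT5) without 1 array. At the exon level 0 calls became 48 with the replicate block and 0 to 426 without 1 array, the highest without KO3 and 1 without KO2. Single probe sets gave 0 to 108 and the interaction 0 to 121, both highest without KO3 (interaction: 1 without KO2). The causes were not tested. Replicate numbers are shared between genotypes, and the main fit did not use them as pairs. Deviations of same-numbered arrays from their group means correlated at -0.424 within replicates 2 and 3 and at -0.241 within replicates 4 and 5, over 12489 genes. Each value rests on a single difference between arrays per genotype, so these values cannot decide whether the numbers pair the samples. Cyclic loess moved the median exon-level difference of all genes tested from -0.145 to 0.007.

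Of 744 values of single genes under an alternative, 649 kept direction and side of the threshold, 63 lost and 10 gained the call, 21 reversed and 1 moved. The replicate block ended the call of Il2ra (adjusted p = 0.064) over all arrays. With the exon-level arrays alone Il2ra passed with the replicate block (0.0289) and without KO3 (0.00412), as did Il4ra (0.0268 and 0.00537), and Il2rb passed without KO3 (0.0224). Without the filter, gene-level Il2ra had an adjusted p of 0.0526. Klf13 lost its call with the table as block and without WT2, WT3, WT4, KO4 or KO5 (adjusted p from 0.0507 to 0.0689 for the arrays).

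Reversals were mostly of differences near 0. At the gene level Il4ra became 0.03 with quantile normalization, 0.01 with cyclic loess, 0.10 without WT4 and 0.12 without KO4, the lowest without 1 array being -0.14. Il15ra became 0.0081 with cyclic loess over all arrays and ranged from -0.16 to 0.04 (without KO3) without 1 array, and 0.02 (quantile), 0.06 (loess) and from -0.23 to 0.14 (without KO3) in the exon-level table. Without 1 array Il9r ranged from -0.01 (without KO3) to 0.19 over all arrays, from -0.04 (without KO3) to 0.29 at the exon level and from -0.25 (without WT4) to 0.30 at the gene level, where it became -0.0024 (quantile), -0.0043 (array median subtracted), -0.0081 (loess) and -0.06 (without KO5). The Il2ra interaction became -0.08 with cyclic loess, Nipa2 became 0.08 with the median of probe sets, 0.08 with quantile normalization added and 0.03 without KO3, and Slc7a1 became 0.06 with cyclic loess. Il2rg moved with quantile normalization, as given above.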
